A study of Mus musculus with 60 samples.

Results

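The Myc, Max and Mxd network was followed here as 10 genes, chosen by symbol and not by any measured value: Myc, Mycn, Mycl, Max, Mlx, Mnt, Mxi1, Mxd3, Mxd4 and Mga. All 10 had a row in the deposited nascent RNA files, out of 24260 gene symbols in all, and together they had 20 RefSeq transcripts. For each gene the transcript with the highest RPKM summed over the libraries stood for the gene. RPKM are reads scaled to library total and to the length counted, which here includes introns. The libraries came from E14 mouse embryonic stem cells, a line grown with serum and LIF, which keeps the cells undifferentiated. Cells had received either an siRNA against Esrrb (siEsrrb, 2 libraries), an orphan nuclear receptor of the naive pluripotency network, or a control siRNA (siCtrl, 2 libraries), and RNA was taken from the chromatin pellet 72 h after transfection. Both groups went through the same lipid transfection, E14 is a single line, and the labels name no other allele or agent; the pair whose titles carry no number is called replicate 1 here. The study used the knockdown to inactivate enhancers and asked how genes of the same chromatin domain respond, and the other 56 of its 60 samples were not analysed here.

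MYC proteins are helix-loop-helix leucine zipper factors that bind DNA as dimers with MAX and raise the transcription of genes for growth, ribosomes and metabolism. MXD proteins and MNT also pair with MAX, occupy the same kind of site and recruit SIN3 corepressors, so the network balances activation and repression through a shared partner. MLX is a second hub, which pairs with the glucose-sensing factors MLXIP and MLXIPL and with some of the repressors. In mouse embryonic stem cells Myc and Mycn can stand in for each other in self-renewal, and MGA joins MAX in a Polycomb complex that keeps germline genes silent.

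The network's own DNA site, the E-box CACGTG, occurs in the promoters of some of these genes, and those stretches are shown because they are where network proteins could bind at genes of the network. The RefSeq promoter table (GRCm38.p6) covers 250 bases before to 50 bases after each start and holds 9 of the 10 genes, with 11 promoters among them; Myc was not matched. CACGTG, which reads the same on both strands, was found in 4 of these 11 promoters, against 7.15% of all 32851 promoters in the table. The 30 bases around each match, 5′ to 3′ on the strand of the gene with the E-box in capitals, lie at chr12:76962234-76962263 (minus strand) for Max, chr11:101087238-101087267 (plus strand) for Mlx, chr11:74830789-74830818 (plus strand) for Mnt and chr5:34187912-34187941 (minus strand) for Mxd4.
Max: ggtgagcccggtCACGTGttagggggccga
Mlx: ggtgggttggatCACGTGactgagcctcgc
Mnt: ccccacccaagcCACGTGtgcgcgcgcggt
Mxd4: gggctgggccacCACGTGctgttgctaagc
The Max match begins 3 bases before the start, the Mlx match 40, the Mnt match 123 and the Mxd4 match 219 bases before it. The estrogen-related receptor element TCAAGGTCA, searched on both strands, was in 0 of the 11 promoters and in 0.423% of all promoters. Its core AAGGTCA, which the longer element contains, was also in 0 of the 11, against 4.72% of all. At background shares this low, 0 is the likeliest count for any 11 promoters, so it does not set these genes apart. These counts cover the promoter windows and not distal enhancers.

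Libraries held 22363943 and 61857158 reads (siEsrrb replicates 1 and 2) and 24764879 and 68002338 reads (siCtrl replicates 1 and 2), recovered from the RPKM. Esrrb itself, the check of the labels, had 1.38 and 2.20 RPKM in siEsrrb and 3.23 and 3.36 RPKM in siCtrl. After scaling its chromatin-pellet RNA stood at 44.2% and 67.0% of control. How much Esrrb mRNA or protein remained was not examined here. Its log2 fold change was -0.72 (SE 0.15, limma adjusted p 0.280), so the targeted gene did not pass the test either. Failing that test is therefore no sign that a network gene was unchanged. Of the 8 stem cell markers listed, all were above the expression minimum, with log2 fold changes above 0 for 4 and below 0 for 4. Among those above 0, Pou5f1 had 18.8 and 16.8 RPKM in siEsrrb and 11.5 and 15.9 RPKM in siCtrl. At an unadjusted limma p under 0.05, 0 of the 8 were higher (background 5.93%) and 3 were lower in siEsrrb (background 5.32%), with 0 passing the adjusted test. These were Zfp42 (8.05 and 10.8 RPKM in siEsrrb, 17.9 and 17.6 RPKM in siCtrl), Dppa5a (8.78 and 10.6 RPKM in siEsrrb, 14.4 and 16.7 RPKM in siCtrl) and Nanog (3.45 and 5.07 RPKM in siEsrrb, 5.37 and 7.10 RPKM in siCtrl). Primitive endoderm, fibroblast and mesendoderm markers had 0 tested genes, and the 7 fibroblast genes together came to 0.261 and 0.678 RPKM in siEsrrb and 0.164 and 0.486 RPKM in siCtrl. Neuroectoderm markers summed to 7.67 and 8.57 RPKM in siEsrrb and 6.11 and 5.94 RPKM in siCtrl (4 of 6 genes tested), with the higher siEsrrb sums coming from Nes, with 5.45 and 5.60 RPKM in siEsrrb and 2.87 and 2.88 RPKM in siCtrl. Without Nes the other 5 summed to 2.23 and 2.97 RPKM in siEsrrb and 3.23 and 3.06 RPKM in siCtrl, Sox1 being higher and Ncam1 and Tubb3 lower in both siEsrrb libraries. The part of these marker differences in the values of the network genes was not tested. The labels do not say whether the libraries of a group come from different cultures, so any p-value here reflects library-to-library spread, which may be technical. In bulk libraries a change in the share of cells in a given state and a change in RNA per cell cannot be told apart.

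Mga and Mycn had the highest levels of the network, and the 10 genes spanned a wide range. On the scale of deposited RPKM, which is per length, the mean over the 4 libraries was 6.76 for Mga, 5.64 for Mycn, 3.45 for Mnt and 3.10 for Max. Mlx (1.13), Mxd3 (1.07), Myc (1.01) and Mxi1 (0.758) formed a middle group, and Mycl (0.364) and Mxd4 (0.190) were lowest. Neighbours in this order whose ranges over the libraries overlapped were Mga and Mycn, Mnt and Max, and the run from Mlx through Mxd3 and Myc to Mxi1. Mycn lay above Mnt, Max above Mlx, Mxi1 above Mycl and Mycl above Mxd4 in 4 of 4 libraries each. Mga lay above Mycn in 3 of 4 libraries, the exception being siEsrrb replicate 1.

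**Figure D1:**
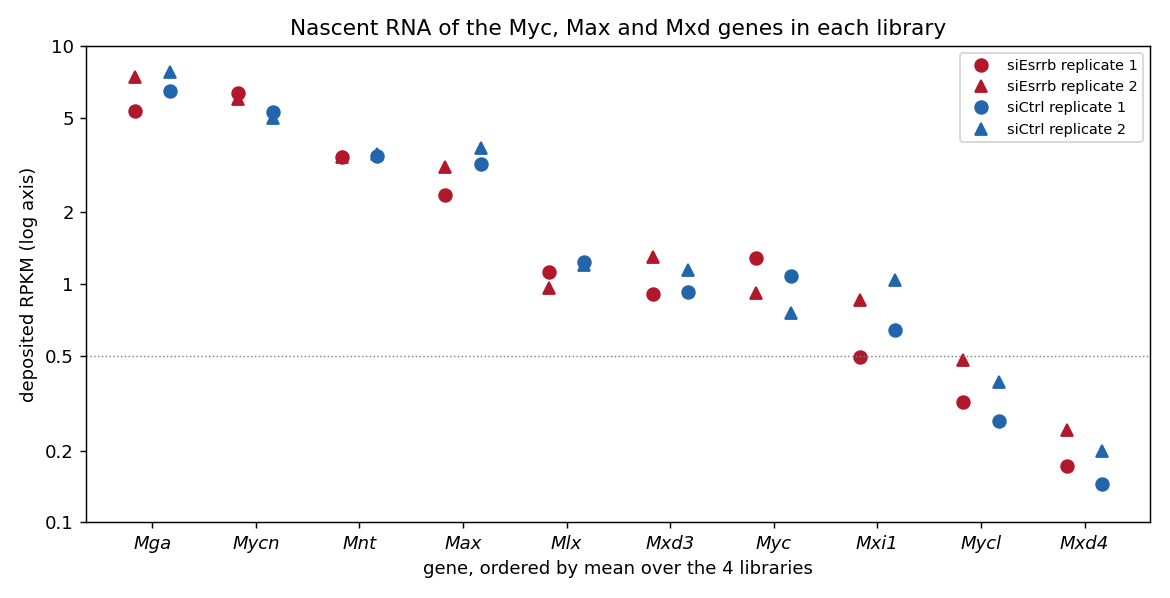
Deposited RPKM (log axis) of the 10 genes in each library, siEsrrb in red and siCtrl in blue, circles for replicate 1 and triangles for replicate 2; the dotted line marks 0.5 RPKM. Mga and Mycn lie at the top, and the siEsrrb points lie above the siCtrl points for Mycn and below them for Max.

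Each of the 3 MYC genes had a higher value in siEsrrb within both replicate numbers, a pattern shared by 37.8% of all tested genes, and 0 of the 3 passed the test. Mycn, the MYC gene with the highest nascent RPKM in these libraries, had 6.34 and 5.96 RPKM in siEsrrb (815 and 2119 reads) and 5.27 and 4.99 RPKM in siCtrl (750 and 1949 reads). Both siEsrrb libraries lay above both controls. Scaled by library, Mycn stood at 125% of control in replicate 1 (95% counting interval 113% to 138%) and at 123% in replicate 2 (115% to 130%). The scaled means were 6.28 ± 0.881 RPKM in siEsrrb and 5.07 ± 0.650 RPKM in siCtrl (SD, n = 2 each). Fitting log2(RPKM + 0.5), the scale of every fitted value here unless another is named, gave Mycn a log2 fold change of 0.28 (SE 0.15). Its limma p, adjusted for all tested genes, was 0.567, so Mycn did not pass the test. Intervals are exact binomial (Clopper-Pearson) intervals on the recovered reads and cover counting error only.

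Myc, the founding member of the family, had 1.28 and 0.921 RPKM in siEsrrb (144 and 286 reads) and 1.08 and 0.753 RPKM in siCtrl (134 and 257 reads). Here the groups overlapped, because replicate 1 was higher than replicate 2 in both of them. Within a replicate number, siEsrrb stood at 123% of control (96.8% to 157%) and at 125% (106% to 149%). The fitted log2 fold change was 0.21 (SE 0.23, limma adjusted p 0.782). It was -0.02 without siCtrl replicate 2 and also -0.02 without siEsrrb replicate 1. Without siCtrl replicate 1 it was 0.43, and without siEsrrb replicate 2 it was 0.44. The direction for Myc therefore depended on which library was left out.

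Mycl, the least expressed of the 3, had 0.321 and 0.481 RPKM in siEsrrb (47 and 195 reads) and 0.265 and 0.388 RPKM in siCtrl (43 and 173 reads). It lay under the expression minimum of the main test, a mean of 0.5 RPKM. Percentages of control were 125% (81.2% to 194%) and 127% (103% to 157%), so the replicate 1 value alone was within counting error of no difference. In the fit without a minimum the log2 fold change was 0.14 (SE 0.10, limma adjusted p 0.752). The pseudocount pulls this value towards 0 more than it does for Mycn.

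Within the MYC family, Mycn supplied 79.8% and 81.0% of the family's summed RPKM in siEsrrb, against 79.7% and 81.4% in siCtrl. Myc supplied 16.1% and 12.5% in siEsrrb and 16.3% and 12.3% in siCtrl, so the share of Myc followed the replicate number and not the siRNA. The log2 ratio of Mycn to Myc averaged 2.50 ± 0.275 in siEsrrb and 2.51 ± 0.310 in siCtrl (SD, n = 2 each). The two-sided exact permutation p was 1, but with 2 against 2 libraries it cannot go below 0.333, so it could not have called a shift of any size. A ratio within a library does not depend on how the library is scaled.

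Max, the common partner, had 2.37 and 3.11 RPKM in siEsrrb (1324 and 4806 reads) and 3.20 and 3.74 RPKM in siCtrl (1979 and 6348 reads). Both siEsrrb libraries lay below both controls. Percentages of control were 76.8% (71.6% to 82.3%) in replicate 1 and 85.3% (82.2% to 88.6%) in replicate 2, and the scaled means were 2.76 ± 0.262 RPKM in siEsrrb and 3.41 ± 0.0697 RPKM in siCtrl (SD, n = 2 each). For Max limma gave a log2 fold change of -0.26 (SE 0.09), with an unadjusted limma p of 0.0452 and an adjusted p of 0.430, so Max did not pass the test. It was the 1 network gene with an unadjusted p under 0.05 (lower, background 5.32% of all tested genes), and 0 of the 8 tested network genes were higher at that threshold (background 5.93%).

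Mlx, the second hub, had 1.13 and 0.966 RPKM in siEsrrb (124 and 294 reads) and 1.24 and 1.20 RPKM in siCtrl (151 and 402 reads). Both siEsrrb libraries lay below both controls on deposited RPKM, but the groups overlapped after scaling. Percentages of control were 94.2% (73.7% to 120%) and 82.4% (70.7% to 96.0%), and the fitted log2 fold change was -0.12 (SE 0.13, limma adjusted p 0.765). Without siEsrrb replicate 2 it was 0.02. In the annotation Mlx overlaps Psmc3ip, and strand use in counting is not given in the sources used here, so reads of the pair cannot be told apart; Psmc3ip itself had a log2 fold change of 0.16 (SE 0.10).

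**Figure D2:**
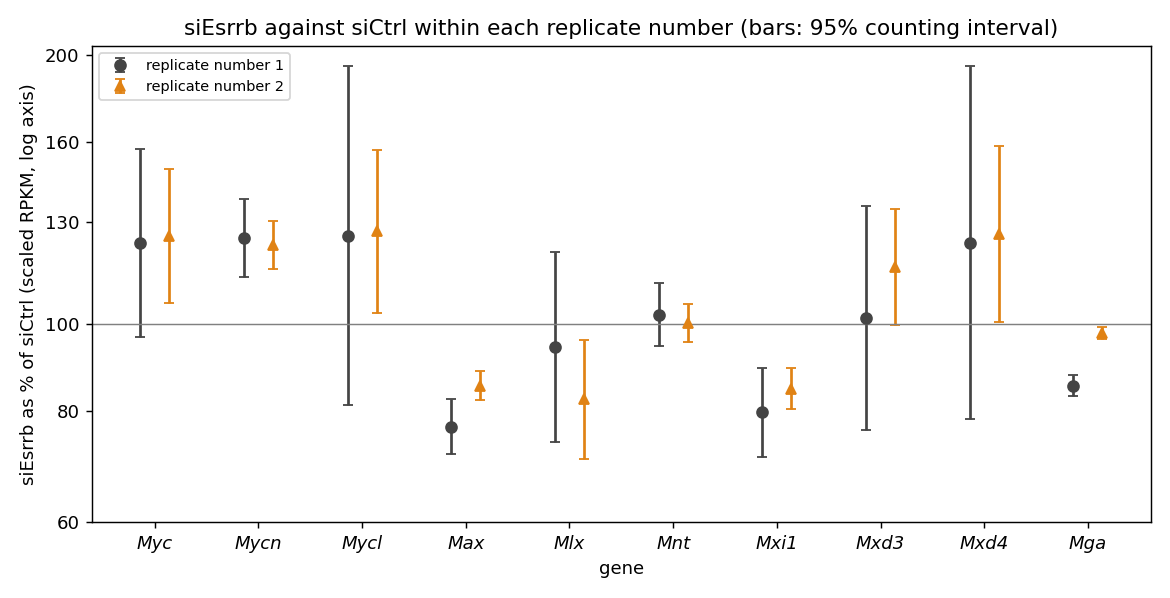
siEsrrb as a percentage of siCtrl for each of the 10 genes, in scaled RPKM on a log axis, circles for replicate number 1 and triangles for replicate number 2; bars are 95% counting intervals. Myc, Mycn, Mycl and Mxd4 lie between 123% and 127% in both numbers. Max and Mxi1 lie between 76.8% and 85.3%, and Mnt at 102% and 100.3%.

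Among Mnt and the MXD genes, with Mga set aside, Mnt was the most abundant, and its deposited RPKM were nearly the same in all libraries. After scaling they were 3.71 and 3.25 in siEsrrb and 3.62 and 3.24 in siCtrl, with replicate 1 higher in both groups. Mnt, a repressor present in growing and resting cells alike, had 3.41 and 3.43 RPKM in siEsrrb (1128 and 3141 reads) and 3.45 and 3.51 RPKM in siCtrl (1264 and 3529 reads). It stood at 102% (94.4% to 111%) and 100.3% (95.6% to 105%) of control. The fitted log2 fold change of 0.02 (SE 0.11, limma adjusted p 0.970) changed sign with the scaling, at -0.02 on RPKM as deposited, where both siEsrrb libraries lay just below both controls. It was also below 0 without siCtrl replicate 2 (-0.05) and without siEsrrb replicate 1 (-0.07).

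Mxi1, an MXD protein also called MAD2, had 0.492 and 0.859 RPKM in siEsrrb (499 and 2410 reads) and 0.640 and 1.04 RPKM in siCtrl (719 and 3207 reads). Replicate 2 was the higher one in both groups, so the groups overlapped. Within a replicate number siEsrrb stood at 79.6% (70.9% to 89.4%) and 84.7% (80.3% to 89.3%) of control. Its log2 fold change came to -0.17 (SE 0.18, limma adjusted p 0.769), and without siEsrrb replicate 1 it was 0.01. Its 3 transcripts differ in the length counted, which includes introns. The longest, spanning 65305 bases of the genome, had 0.394 and 0.757 RPKM in siEsrrb and 0.516 and 0.905 RPKM in siCtrl. These values had the same order of libraries as the transcript used.

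Mxd3, an MXD protein of cells in S phase, had 0.911 and 1.29 RPKM in siEsrrb (93 and 365 reads) and 0.929 and 1.14 RPKM in siCtrl (105 and 355 reads). The groups overlapped, and 102% (76.0% to 136%) and 116% (99.8% to 134%) of control were both within counting error of 100. Its log2 fold change came to 0.08 (SE 0.10, limma adjusted p 0.801), and it was -0.02 without siEsrrb replicate 2. Mxd3 overlaps Prelid1 in the annotation, which at 6.13 RPKM in siEsrrb replicate 1 was several times more abundant, so Mxd3 reads are uncertain for the same reason as those of Mlx.

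Mxd4, an MXD protein linked to differentiating cells, was the least abundant gene of the network. It had 0.173 and 0.244 RPKM in siEsrrb (43 and 168 reads) and 0.145 and 0.198 RPKM in siCtrl (40 and 150 reads). The groups overlapped on deposited RPKM; after scaling both siEsrrb values were above both controls by a small margin (0.188 and 0.231 against 0.152 and 0.183 RPKM). Percentages of control were 123% (78.3% to 195%) and 126% (101% to 158%). In the fit without a minimum its log2 fold change was 0.09 (SE 0.05, limma adjusted p 0.699).

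Mga, which carries both a T-box and a helix-loop-helix domain, had 5.33 and 7.44 RPKM in siEsrrb (8625 and 33283 reads) and 6.47 and 7.80 RPKM in siCtrl (11599 and 38368 reads). It had the most reads of the 10 genes, so its counting intervals were the narrowest, 85.3% of control (83.0% to 87.7%) in replicate 1 and 97.8% (96.3% to 99.2%) in replicate 2. Those 2 intervals do not meet, which shows a spread between replicate numbers beyond counting error. The fitted log2 fold change was -0.12 (SE 0.13, limma adjusted p 0.775), and it was 0.01 without siEsrrb replicate 1.

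Over the network, 0 of the 8 tested genes passed limma, as did 0 of all 9739 tested genes (background 0%, with 1096 genes at an unadjusted p under 0.05). Voom on recovered reads made 0 calls without a replicate block. With the block it made 3630 calls among 15225 genes, Mycn, Max and Mxi1 among them. The labels do not state that replicate numbers pair the libraries, so the limma fit without a block is the one reported. Without siEsrrb replicate 2 the count over all genes was 12, and without siEsrrb replicate 1 or siCtrl replicate 1 it was 2. The 8 genes had a median log2 fold change of -0.05, against -0.00087 over all tested genes, with 4 above 0 and 4 below; with Mycl and Mxd4 let in, the median was 0.05. Groups did not overlap for 1 gene higher (Mycn, background 21.9%) and 1 lower (Max, background 22%), so 2 of 8 compares with 43.8% of all tested genes in either direction, and the count is no result about the network. All 8 had the same direction in both replicate numbers, 4 higher (background 37.8%) and 4 lower (background 39.6%); over all tested genes the share with 1 direction in both was 77.5%. Mycl and Mxd4, below the minimum, were higher in both numbers as well.

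Differences that went with the replicate number were as large as those that went with the siRNA. For 7 of the 10 genes the mean log2 difference between replicates 2 and 1 was larger in size than that between siEsrrb and siCtrl. Myc (-0.46) and Mxi1 (0.33) had the largest of these replicate differences, and Mycn, Max and Mxd4 were the exceptions, with replicate differences of -0.25, 0.10 and 0.08 beside siRNA differences of 0.28, -0.26 and 0.09. Over all tested genes the replicate difference was the larger one for 51.8%, and the median sizes were 0.11 for the replicate and 0.10 for the siRNA. Libraries of the same number were alike in depth, and the submitters' processing notes name 2 further tools, Bowtie and Bowtie2, for replicate 1 alone; the part of either in the replicate difference was not tested.

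**Figure D3:**
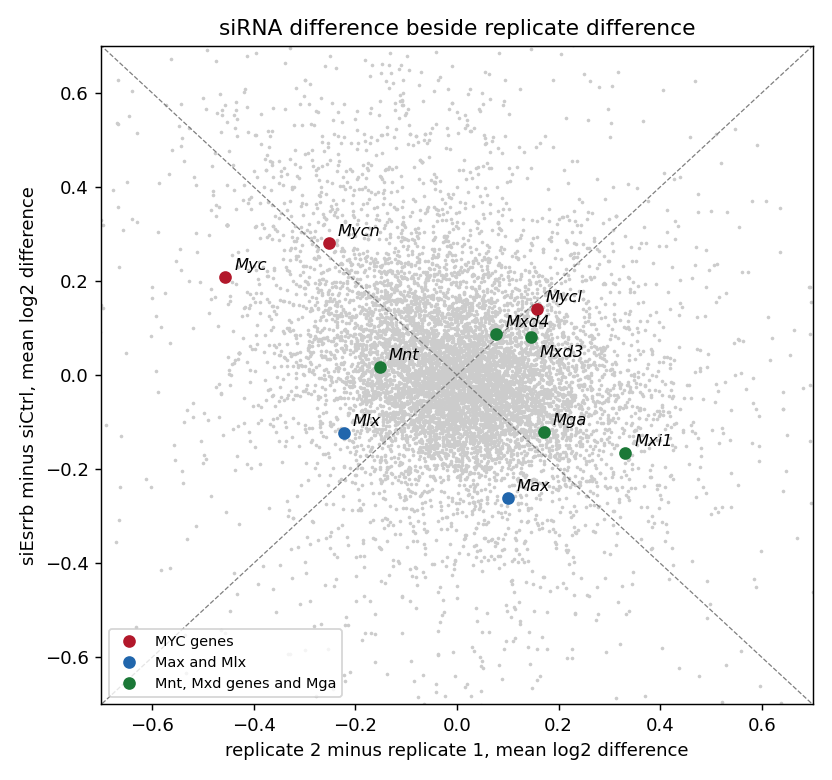
Mean log2 difference between siEsrrb and siCtrl (vertical) against that between replicates 2 and 1 (horizontal) for all tested genes (grey) and the 10 network genes (coloured by role), with axes limited to the range around the network genes; along the dashed lines both differences have the same size. Mycn lies in the upper and Max in the lower of the wedges between the lines, where the siRNA difference is the larger, and Myc and Mxi1 lie far to the left and right.

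The ratio of the MYC genes to Max was chosen after their values had been seen, so it is given as a description. An exact permutation p over 2 against 2 libraries cannot go below 0.333, so none is used for the ratios to Max, to the repressors or to Pvt1. The summed RPKM of Myc, Mycn and Mycl was 3.35 and 2.37 times that of Max in siEsrrb, against 2.07 and 1.64 times in siCtrl. On the log2 scale the ratio averaged 1.49 ± 0.355 in siEsrrb and 0.88 ± 0.236 in siCtrl (SD, n = 2 each), a difference of 0.61, or 0.70 in replicate 1 and 0.53 in replicate 2. The ratio of the MYC sum to the sum of Mnt, Mxi1, Mxd3 and Mxd4 was 1.59 and 1.26 in siEsrrb and 1.28 and 1.04 in siCtrl, and here the groups overlapped.

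The MYC genes' level can be read beside that of the genes next to them, since the study concerns domains of neighbouring genes. Pvt1, the noncoding RNA gene next to Myc on one side, had 1.49 and 1.64 RPKM in siEsrrb and 2.17 and 2.21 RPKM in siCtrl. Both siEsrrb libraries were below both controls. Its log2 fold change was -0.35 (SE 0.08), with an unadjusted limma p of 0.00968 and an adjusted p of 0.296. The log2 ratio of Myc to Pvt1 was also chosen after its values had been seen and is a description only. This ratio averaged -0.52 ± 0.436 in siEsrrb and -1.28 ± 0.382 in siCtrl (SD, n = 2 each), a difference of 0.80 in replicate 1 and 0.72 in replicate 2. Ddx1, an RNA helicase gene beside Mycn, had a log2 fold change of 0.11 (SE 0.09), and Trit1, a tRNA-modifying enzyme gene beside Mycl, had -0.10 (SE 0.07).

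By the order of GRCm38.p6, the 10 genes had 22 measured neighbours or overlapping genes, of which 16 were tested and 0 passed limma (1, Pvt1, had an unadjusted p under 0.05). Groups did not overlap for 4 of the 16 higher and 5 lower, against backgrounds of 21.9% and 22%. Zfyve28, next to Mxd4, was the furthest from 0 (log2 fold change -0.51, SE 0.19, limma adjusted p 0.444), with 0.220 and 0.524 RPKM in siEsrrb and 0.597 and 0.891 RPKM in siCtrl. Beside Mlx, Coasy, an enzyme of coenzyme A synthesis, had 0.14 (SE 0.08) and Retreg3 -0.10 (SE 0.07). Mettl16 and Sgsm2 on either side of Mnt had -0.10 (SE 0.07) and 0.05 (SE 0.07), and Tyro3, a receptor kinase gene beside Mga, had 0.14 (SE 0.08). The differences between these genes and their network neighbours were not tested.

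The genes whose pattern over the 4 libraries was most like that of Mycn, the tested member furthest from 0, were Arxes1, the RNA helicase gene Ddx3x and the plexin gene Plxnb1. Their Euclidean distances from Mycn, on centred log2(scaled RPKM + 0.5) values over 4 libraries, were 0.0123, 0.0143 and 0.0248, against a median of 0.426 over all tested genes. Their log2 fold changes were 0.28 each, as for Mycn. This match follows from the selection, because the distance and the fold change use the same values.

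Of the remaining genes of the network, Mlxipl, a glucose-sensing partner of MLX, had 0.317 and 0.530 RPKM in siEsrrb and 0.404 and 0.806 RPKM in siCtrl (log2 fold change -0.22, SE 0.19, limma adjusted p 0.713). Mlxip, its paralog, had -0.02 (SE 0.07), and 0.02 without siCtrl replicate 2 or 0.0043 without siEsrrb replicate 1. Mxd1, the third gene of this list, lay under the minimum, with 0.156 and 0.265 RPKM in siEsrrb and 0.256 and 0.350 RPKM in siCtrl; siEsrrb was lower in both replicate numbers.

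MYC coactivator genes had a median log2 fold change of -0.03 over 12 tested genes, against -0.00087 over all, and 0 passed limma. Groups did not overlap for 2 higher and 4 lower (background 21.9% and 22%). Wdr5, a histone-binding adaptor that holds MYC on chromatin, was furthest from 0, with 3.89 and 4.40 RPKM in siEsrrb and 5.52 and 5.78 RPKM in siCtrl (-0.37, SE 0.09, limma adjusted p 0.332). The ATPase gene Ruvbl2 had -0.13, and the highest were the elongation factor gene Paf1 (0.13) and the acetyltransferase gene Kat5 (0.12).

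Corepressor genes used by MXD and MNT, with Zbtb17, which encodes the MYC partner MIZ1, had a median of -0.05 over 9 tested genes, and 0 passed limma. Sin3b, a scaffold that MXD proteins bind directly, had 2.56 and 2.53 RPKM in siEsrrb and 1.93 and 2.19 RPKM in siCtrl (log2 fold change 0.29, SE 0.09, limma adjusted p 0.403). The histone deacetylase genes Hdac1 and Hdac2 were lowest at -0.20 and -0.16, with both siEsrrb libraries below both controls. In this list groups did not overlap for 2 genes higher and 3 lower (background 21.9% and 22%).

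Genes of the Polycomb complex that holds MGA and MAX had a median of 0.07 over 11 tested genes of 12, and 0 passed limma. Ring1, a ubiquitin ligase of Polycomb complexes, was highest (0.23, SE 0.07, unadjusted limma p 0.0332), followed by E2f6, a repressive E2F (0.21, SE 0.08). At an unadjusted limma p under 0.05, 1 gene of this list was higher (background 5.93%) and 0 were lower (background 5.32%). Groups did not overlap for 3 higher and 2 lower (background 21.9% and 22%). Rybp, a cofactor of these complexes, was lowest, with 2.08 and 1.98 RPKM in siEsrrb and 3.20 and 2.66 RPKM in siCtrl (-0.40, SE 0.17), and L3mbtl2, a reader of modified histones, had -0.15. The median turned to -0.03 without siCtrl replicate 2 and to -0.05 without siEsrrb replicate 1.

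Genes whose proteins control MYC stability had a median of -0.03 over 16 tested genes of 17, and 0 passed limma. Ppp2r5a, a regulatory subunit of the phosphatase that destabilises MYC, was lowest, with 0.896 and 1.18 RPKM in siEsrrb and 1.29 and 1.54 RPKM in siCtrl (-0.29, SE 0.08, limma adjusted p 0.351), followed by the kinase gene Gsk3b at -0.09. Plk1, a mitotic kinase, was highest (0.25, SE 0.09), and the deubiquitinase gene Usp36 had 0.05. Usp36 was below 0 without siCtrl replicate 2 (-0.07) and without siEsrrb replicate 1 (-0.09), and the list's median was 0.04 without siCtrl replicate 1.

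MYC target genes lay on both sides of 0. The 46 widely described targets listed, all tested, had a median of 0.06 on the log2 fold change scale (replicate 1 alone 0.10, replicate 2 alone 0.04), against -0.00087 over all tested genes. Of the 46, 32 were above 0 and 14 below, against 4838 above and 4901 below among all 9739 tested genes. In both replicate numbers 24 were higher (background 37.8%) and 12 lower (background 39.6%). Groups did not overlap for 9 higher and 8 lower (background 21.9% and 22%), and 0 passed limma. The highest were the mitochondrial chaperone gene Hspd1, with 14.4 and 12.7 RPKM in siEsrrb and 11.5 and 10.7 RPKM in siCtrl (0.32, SE 0.19), and the ribosome assembly gene Rrs1 (0.31, SE 0.20). The lowest were the transferrin receptor gene Tfrc, with 3.56 and 4.81 RPKM in siEsrrb and 5.67 and 6.89 RPKM in siCtrl (-0.50, SE 0.12, limma adjusted p 0.308), and E2f2, a cell cycle factor (-0.37, SE 0.08, limma adjusted p 0.286). Tfrc, E2f2 and Shmt1 were the 3 targets with an unadjusted limma p under 0.05, all lower (background 5.32%). The median was -0.03 without siEsrrb replicate 1.

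**Figure D4:**
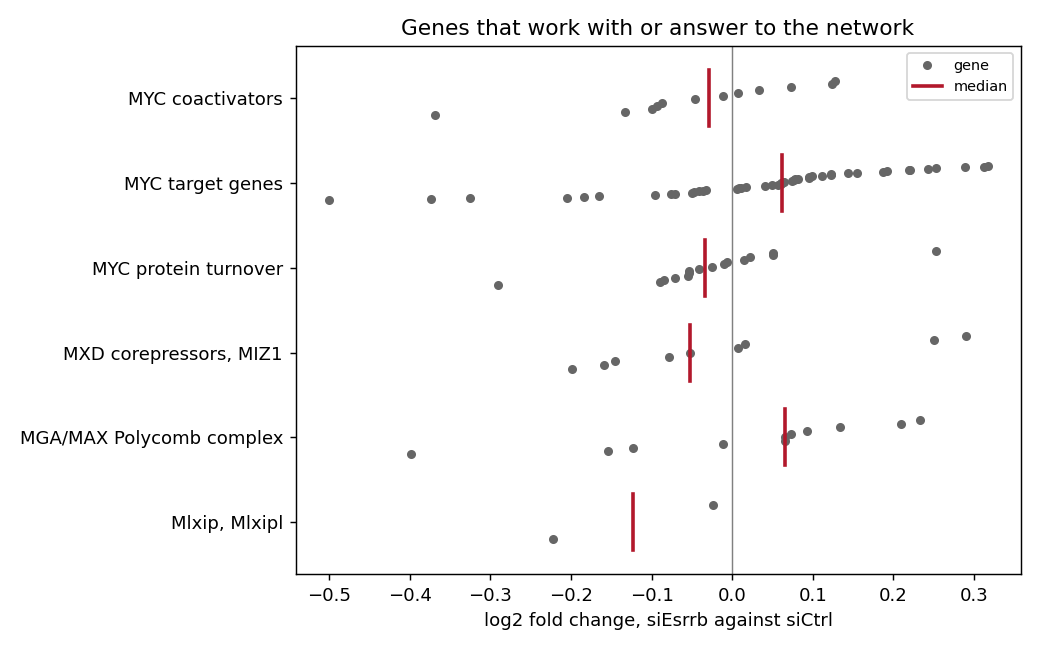
Fitted log2 fold change (siEsrrb against siCtrl) of the tested genes in each of 6 lists, one point per gene, spread vertically by rank so that points do not hide each other, with the median as a red line. List medians lie between -0.12 and 0.07, and Tfrc at -0.50 is the gene furthest from 0.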

How the data were processed

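Chromatin-pellet RNA of 4 libraries was sequenced after ribosomal RNA depletion with a stranded kit, per the labels' protocols. The authors deposited RPKM per RefSeq transcript (34929 per library). The submitters' processing notes name CASAVA 1.4, TopHat2 and mm9 for all libraries, and Bowtie 1.1.1 and Bowtie2 also for replicate 1; for the counter, annotation version, strand use and multiply mapping reads nothing is stated there or in the labels. RPKM values gave whole reads (within 0.01 read) at 31771 of 31771 transcripts above 0. For 74.7% of single-transcript genes the implied length was within 1% of the annotated span, so introns count. The deposited table of the series repeats the replicate 1 values at all 34929 transcripts and added nothing.

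RPKM were scaled by library (factors 1.09 and 0.948 for siEsrrb, 1.05 and 0.925 for siCtrl) and tested as log2(RPKM + 0.5) with limma 3.58.1 (R 4.3.3), with a mean-variance trend and Benjamini-Hochberg adjustment, over the 9739 genes with a mean of at least 0.5. The code was tested on simulated data with independent libraries and planted changes much larger than those of the network genes. That checks the code and does not show how well the test finds changes of their size. The ratio of Mycn to Myc was compared by an exact permutation test over libraries. Members and lists were chosen with earlier results of these data known. The text names all 10 members, the 2 lowest and 2 highest tested genes of each list, neighbours whose groups do not overlap, Esrrb and the 3 genes nearest in pattern to Mycn; genes and ratios beyond this were chosen after their values were seen. A gene that this rule names is not reported here. Alternatives were other pseudocounts, filters and scalings, no trend, the mean over transcripts, a replicate block, voom on recovered reads, and leaving out each library.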

Additional observations from a re-analysis of the deposited data

How the results depend on the processing

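Over 16 alternatives, 140 of 152 values of the network genes kept their direction and their side of the threshold, 9 changed sign and 3 passed the threshold. Mycn, Max, Mycl and Mxd4 changed sign under none of those run for them; for Mycl and Mxd4 the fit without a filter is the reported one and was not counted. Leaving out 1 library gave log2 fold changes of -0.025 to 0.44 for Myc, 0.15 to 0.41 for Mycn, -0.34 to -0.18 for Max, -0.27 to 0.019 for Mlx, -0.065 to 0.099 for Mnt, -0.34 to 0.0062 for Mxi1, -0.024 to 0.19 for Mxd3 and -0.25 to 0.0096 for Mga; Mlxip ranged from -0.064 to 0.016 and Usp36 from -0.086 to 0.19. Mnt was -0.021 on RPKM as deposited. The cause was not tested.

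Leaving out 1 library gave 0 to 12 calls over all genes. Replicate numbers are not stated to pair the libraries; deviations of same-numbered libraries correlated at 0.378 over genes. With a replicate block limma made 0 calls (2553 genes at an unadjusted p under 0.05), and voom with the replicate block made 3630 calls among 15225 genes, including Mycn (0.30, adjusted p 0.0057), Max (-0.30, adjusted p 0.00413) and Mxi1 (-0.27, adjusted p 0.0136); 18 of 545 values of other named genes also passed, all of them there.

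The median of the tested network genes was 0.049 without a filter and at a mean RPKM of at least 0.1, -0.088 on RPKM as deposited, 0.083 by voom, 0.0903 by voom with the block, and -0.034 to -0.00081 without 1 library. The Mlxip, Mlxipl and Mxd1 list reached -0.46 by voom and -0.43 with the block. The corepressor median was 0.0077 at a mean RPKM of at least 2, -0.087 as deposited, -0.097 by voom, -0.0908 with the block, and -0.11 to -0.0202 without 1 library. Without 1 library the Polycomb list ranged from -0.053 to 0.16 and the turnover list from -0.074 to 0.036. At a mean RPKM of at least 2 the Mlxip list, Myc, Mycl, Mlx, Mxi1, Mxd3 and Mxd4 had no value. Mycl and Mxd4, with 47 and 43 reads in siEsrrb replicate 1, are limited most by depth.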
